A study of Mus musculus with 14 samples.

Results

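The 10 genes described here are Tlr1, Tlr2, Tlr3, Tlr4, Tlr6, Tlr7, Tlr8, Tlr9 and Tlr13, which encode Toll-like receptors, and Cd14, which encodes a co-receptor of these. They were chosen by gene name, and all 10 were found among the 55414 genes of the count table. Primary bone marrow-derived macrophages (pBMDMs) from wildtype mice spent 24 h in the filtered supernatants of Pfa1 cells. Pfa1 cells are mouse embryonic fibroblasts that lose Gpx4 when given 4-hydroxytamoxifen (4OHT) and then undergo ferroptosis, a form of cell death in which membrane lipids are oxidised with the help of iron. The groups were supernatant of untreated cells (ctrl), of cells given 4OHT (4OHT, the ferroptotic supernatant), of cells given 4OHT with the ferroptosis inhibitor Ferrostatin-1 (4OHT+Fer-1), of cells given Ferrostatin-1 alone (Fer-1), and fresh medium without contact to fibroblasts (medium). There were 3 libraries of each supernatant and 2 of medium, 14 in all, and every group consisted of wildtype C57BL/6N macrophages plated with M-CSF. The Pfa1 cells are 1 cell line. Whether 4OHT or Ferrostatin-1 remained in the supernatants was not measured here, so an action of these agents on the macrophages cannot be told apart from that of what the fibroblasts released.

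Toll-like receptors are membrane receptors of innate immune cells that recognise parts of microbes and, in some settings, molecules of dying cells. TLR1, TLR2, TLR4 and TLR6 act at the cell surface, where TLR2 pairs with TLR1 or TLR6 to bind lipoproteins and TLR4 binds lipopolysaccharide (LPS), which CD14 hands over to the TLR4 partner protein MD-2. TLR3, TLR7, TLR8, TLR9 and TLR13 act in endosomes, where they recognise RNA or DNA. All of them signal through the adapter MyD88 except TLR3, which uses TRIF, and TLR4, which uses both. Macrophages carry most of these receptors, and the comparison of supernatants asks whether exposure to ferroptotic supernatant was accompanied by another level of their RNA.

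Reads came from transcript 3′ ends, and a count here does not grow with gene length. Levels are therefore set side by side as CPM, counts scaled to library size with edgeR's TMM factors. The total count per library lay between 7823051 and 11052352, at which 3 counts correspond to between 0.272 and 0.381 CPM, a limit that covers counting error only. No replicate pair was a duplicate deposit, as the chi-square of their counts divided by its degrees of freedom was 10.9 or more. The labelled cell type was borne out by its markers, since all 10 macrophage markers passed the filter on low counts and their summed level was at least 19900 CPM in every library. Cd3e, Cd3g and Nkg7 for T and NK cells, and Ly6g and Elane for neutrophils had 0 counts in all libraries, and Siglech, a marker of plasmacytoid dendritic cells, which are rich in TLR7 and TLR9, had at most 6 counts. Other genes of these lists were present, with S100a8 and S100a9 of the neutrophil list at up to 189 and 221 counts and Tcf4 of the plasmacytoid list at 396 to 646 CPM. In bulk RNA, fewer cells of a type and less RNA per cell cannot be told apart.

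In the GENCODE M21 annotation of GRCm38, the mouse build that the submitters' processing notes name, all 10 are protein-coding genes. Tlr2 (ENSMUSG00000027995) is at chr3:83836272-83841767 on the minus strand and Tlr4 (ENSMUSG00000039005) at chr4:66827584-66930284 on the plus strand. Tlr1 (ENSMUSG00000044827, chr5:64924679-64933563) and Tlr6 (ENSMUSG00000051498, chr5:64952031-64960097) lie 18467 bp apart on the minus strand of chromosome 5 with no annotated gene between them. Tlr3 (ENSMUSG00000031639) is at chr8:45395665-45411080 on the minus strand and overlaps the antisense gene Gm45542, which had 0 counts in all libraries. Tlr9 (ENSMUSG00000045322) is at chr9:106222598-106226883 on the plus strand. Cd14 (ENSMUSG00000051439) is at chr18:36725067-36726798 on the minus strand. The remaining members are on the X chromosome: Tlr13 (ENSMUSG00000033777) at chrX:106143204-106160493 on the plus strand, and Tlr8 (ENSMUSG00000040522, chrX:167242696-167264329) and Tlr7 (ENSMUSG00000044583, chrX:167304929-167330558), which lie 40599 bp apart on the minus strand.

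pBMDMs expressed 9 of the 10 genes above edgeR's filter on low counts, and the order of their levels spanned more than 1 order of magnitude. Tlr7, a receptor for single-stranded RNA, was the most abundant, with a median of 193 CPM over the 14 libraries and a range from 108 to 277 CPM. Cd14 followed with a median of 166 CPM (range 60.5 to 256 CPM), then Tlr13, a receptor for bacterial ribosomal RNA, with 86.4 CPM (26.9 to 117 CPM). Tlr2 had a median of 79.2 CPM (51.0 to 122 CPM), Tlr4 of 56.0 CPM (28.9 to 82.2 CPM) and Tlr8, an endosomal RNA receptor, of 49.5 CPM (36.8 to 80.2 CPM). Lower still were Tlr1 at 28.6 CPM (19.8 to 46.5 CPM), Tlr3, the receptor for double-stranded RNA, at 23.3 CPM (9.61 to 56.1 CPM) and Tlr6 at 16.7 CPM (11.7 to 24.3 CPM). Neighbours in this order overlapped in their ranges with the exception of Tlr6 and Tlr9. Within libraries, Tlr7 exceeded Cd14 in 12 of 14, Cd14 exceeded Tlr13 in 11, Tlr13 exceeded Tlr2 in 8 and Tlr4 exceeded Tlr8 in 8, while Tlr2 exceeded Tlr4 and Tlr8 exceeded Tlr1 in 13 libraries each. Over libraries, Tlr3 varied by 5.84-fold and Cd14 and Tlr13 by 4.23-fold and 4.35-fold between the lowest and the highest, whereas Tlr6 varied by 2.08-fold.

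Tlr9, the receptor for unmethylated CpG DNA, was close to the limit of detection. Its counts were 5, 7 and 2 in ctrl, 4, 4 and 2 in 4OHT, 1, 4 and 5 in 4OHT+Fer-1, 4, 1 and 4 in Fer-1, and 11 and 4 in medium. It therefore did not pass the filter and was not fitted. The level was 0.477 ± 0.243 CPM (SD, n = 3) in ctrl. In 4OHT it was 0.346 ± 0.0854 CPM (SD, n = 3), with p = 0.5 for the difference in an exact two-sided permutation test that cannot go below 0.1 with 3 against 3 libraries. At these counts a difference in Tlr9 between supernatants was not detectable.

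**Figure D1:**
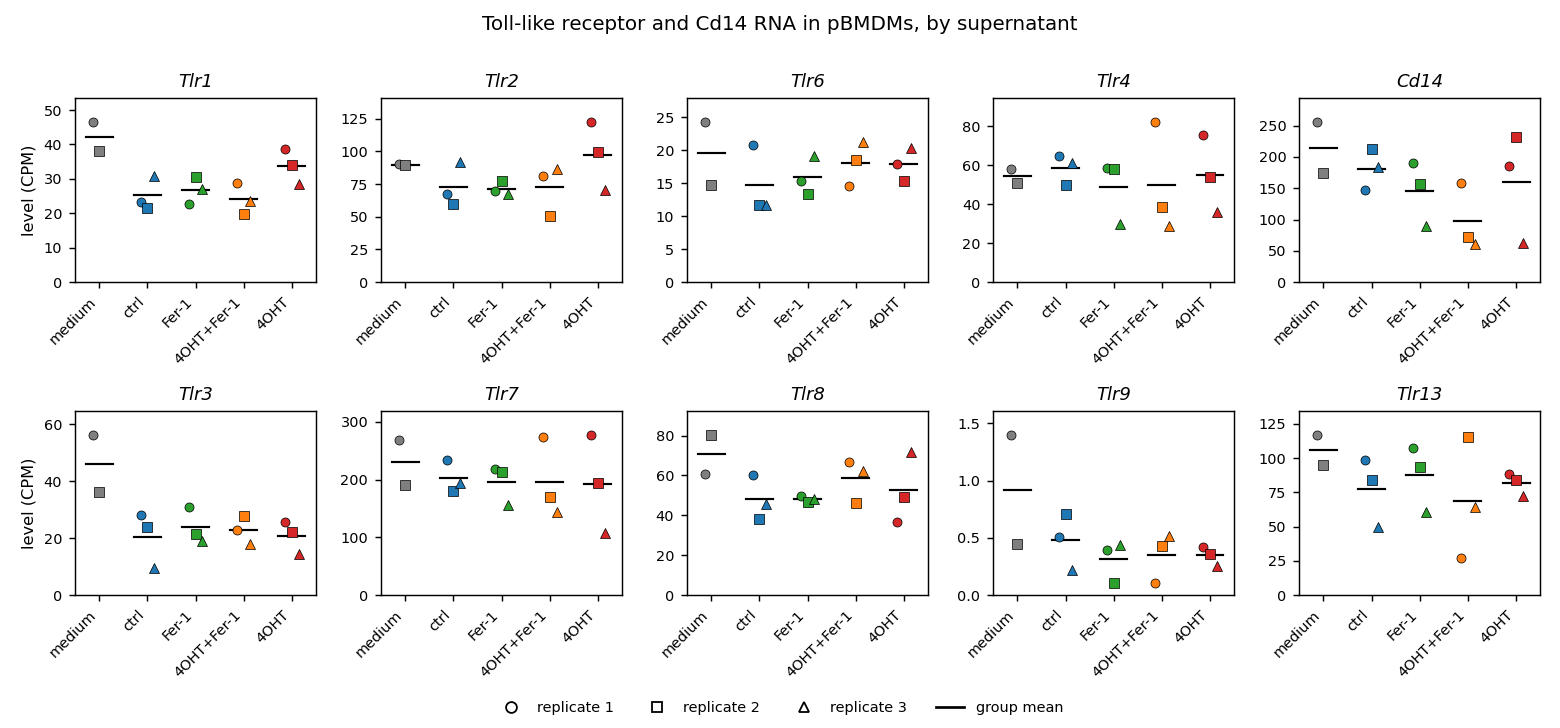
Level of each of the 10 genes in CPM (y axis, linear and from 0, scaled per gene) in each library, by group (x axis); symbols mark the replicate number and the black line is the group mean. Tlr3 in both medium libraries (36.2 and 56.1 CPM) sits above all 12 supernatant libraries. For Tlr1, 11 of the 12 lie below both medium libraries, and for each other gene fewer do. The supernatant groups overlap with each other for all 10 genes.

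Exposure to ferroptotic rather than ctrl supernatant was not accompanied by a detectable change in any of the 9 receptors or co-receptors tested. All genes were tested in 1 edgeR model of the 14 libraries with the group and the replicate number, and called at a Benjamini-Hochberg adjusted p under 0.05 over all 12851 genes tested, without a limit on the fold change. Between 4OHT and ctrl this called 0 of the 9 members against 192 of 12851 genes (1.49%), and no member had an unadjusted p under 0.05. DESeq2 also called 0 members. The fitted difference was positive for 6 members and negative for 3, with a median log2 fold change of 0.12 beside 0.01 over all genes tested. All 9 intervals included 0, and the 95% bounds reached from -1.13 (Cd14) to 0.94 (Tlr2) on the log2 scale, so that changes of this size in single genes were not excluded.

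Among the members, Tlr1 and Tlr2 of the cell surface had the largest positive differences. Tlr1 had 38.7, 34.1 and 28.5 CPM in the 4OHT libraries of replicates 1, 2 and 3 and 23.2, 21.4 and 30.9 CPM in ctrl. The 4OHT library was the higher of the pair for replicates 1 and 2 and the lower for replicate 3, and the groups overlapped. The fitted difference was 0.43 on the log2 scale, with a standard error of 0.21 and an adjusted p of 0.494 (edgeR).

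Tlr2 had 122, 99.5 and 70.2 CPM in 4OHT and 67.2, 59.6 and 91.7 CPM in ctrl, again with the 4OHT library lower only for replicate 3. Its difference was also 0.43 on the log2 scale, with a standard error of 0.24 and an adjusted p of 0.586 (edgeR). Tlr6, the other partner of TLR2, had 17.9, 15.4 and 20.4 CPM in 4OHT against 20.8, 11.7 and 11.7 CPM in ctrl, and these groups overlapped too.

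Tlr4 and Cd14, which act together on LPS, had slightly negative fitted differences that rested on replicate 3. Cd14 had 186, 232 and 62.9 CPM in 4OHT and 147, 213 and 184 CPM in ctrl. The 4OHT libraries of replicates 1 and 2 were thus above their ctrl counterparts, and that of replicate 3 was far below, at 497 counts against 1668. The log2 fold change of Cd14 was -0.37 (95% confidence interval -1.13 to 0.39, adjusted p = 0.808, edgeR) and became 0.20 without the libraries of replicate 3. Tlr4 had 75.7, 53.9 and 36.2 CPM in 4OHT and 65.0, 50.0 and 61.1 CPM in ctrl, with a log2 fold change of -0.18 (adjusted p = 0.878, edgeR) that became 0.15 without replicate 3. The 4OHT library of replicate 3 had the lowest total count of all libraries, the highest share of mitochondrial transcripts (10.6%) and the lowest level of the proliferation marker Mki67 among supernatants (71.4 CPM), and the part of these in its Cd14 and Tlr4 levels was not tested.

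The endosomal receptors showed differences of similar size in either direction. Tlr7 had 277, 193 and 108 CPM in 4OHT and 234, 180.2 and 193 CPM in ctrl, and its log2 fold change was -0.16 (95% confidence interval -0.58 to 0.27, edgeR). Without replicate 3 this value was 0.16. For Tlr3, Tlr8 and Tlr13 the log2 fold changes were 0.07, 0.12 and 0.12, with adjusted p-values of 0.952, 0.923 and 0.952 (edgeR). These 3 values also turned negative without replicate 3, at -0.13 for Tlr3, -0.18 for Tlr8 and -0.10 for Tlr13.

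**Figure D2:**
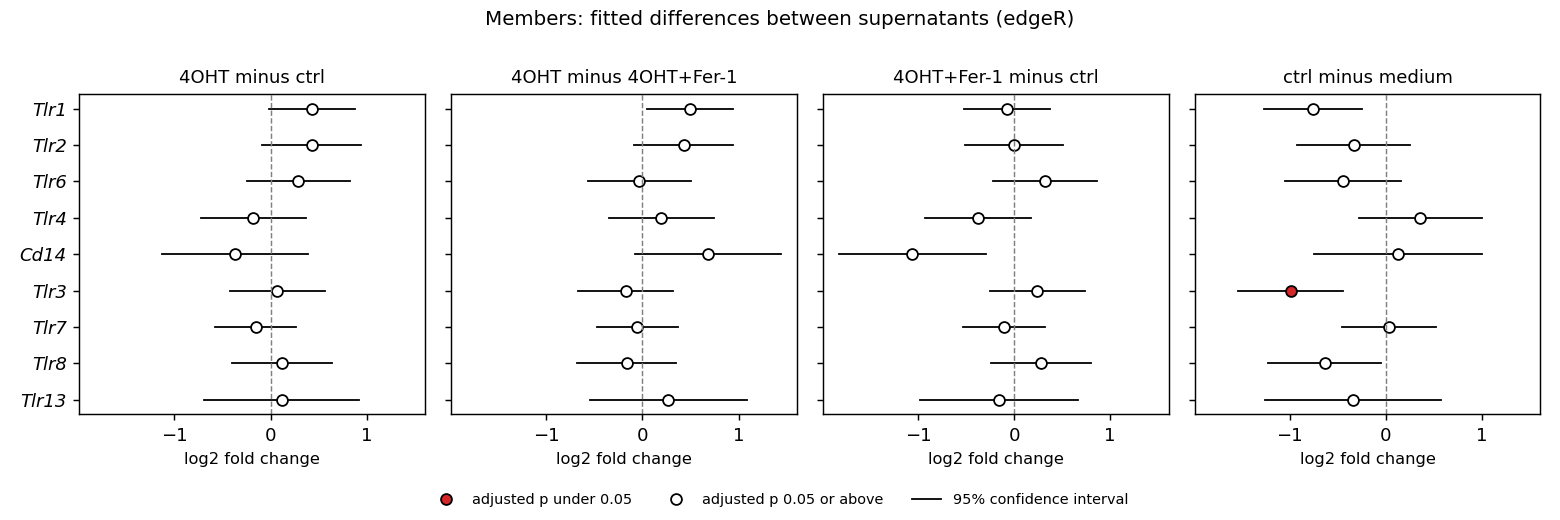
Fitted log2 fold change (x axis) of the 9 members tested (y axis) in 4 comparisons, with 95% confidence intervals from edgeR's quasi-likelihood fit; filled points passed an adjusted p under 0.05. The single filled point is Tlr3 in ctrl against medium, at -0.99.

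The comparison of ferroptotic supernatant with that of cells rescued by Ferrostatin-1 asked the same question with 4OHT present on both sides. It called 0 of the 9 members (0 by DESeq2 as well) against 174 of all genes (1.35%). Both this and the preceding comparison use the same 4OHT libraries, so their values are not independent. Tlr1 alone had an unadjusted p under 0.05, with 38.7, 34.1 and 28.5 CPM in 4OHT and 28.8, 19.8 and 23.6 CPM in 4OHT+Fer-1. Within each replicate number the 4OHT library was the higher, by 0.42, 0.77 and 0.27 on the log2 scale, although the 2 groups overlapped by a small margin. The log2 fold change was 0.50 (95% confidence interval 0.05 to 0.94, adjusted p = 0.350, edgeR), which did not pass.

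Cd14 had the largest fitted difference in this comparison. Its level was 186, 232 and 62.9 CPM in 4OHT and 159, 72.3 and 60.5 CPM in 4OHT+Fer-1, and the within-number differences were 0.23, 1.67 and 0.06 on the log2 scale. The difference was thus carried mainly by replicate 2. The log2 fold change was 0.69 (95% confidence interval -0.07 to 1.44, adjusted p = 0.483, edgeR), and it was 0.16 without the libraries of replicate 2.

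Cd14 was also the member with the largest difference between 4OHT+Fer-1 and ctrl. The 4OHT+Fer-1 libraries of replicates 2 and 3 (72.3 and 60.5 CPM) lay below all 3 ctrl libraries (147, 213 and 184 CPM), whereas that of replicate 1 (159 CPM) did not. The log2 fold change was -1.06 (95% confidence interval -1.82 to -0.30, unadjusted p = 0.0105, adjusted p = 0.948, edgeR), and over the alternatives it lay between -1.60 and -0.59 with adjusted p-values from 0.362 to 1. This comparison called 0 of 9 members by edgeR and by DESeq2, beside 4 of all genes (0.0311%). In the remaining 8 members the log2 fold changes lay between -0.38 (Tlr4) and 0.32 (Tlr6).

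Tlr13 held the most discordant single library. In 4OHT+Fer-1 it had 26.9, 115 and 64.5 CPM, the first of these from 257 counts, whereas the other replicate 1 libraries had 98.6 CPM in ctrl, 108 CPM in Fer-1, 88.7 CPM in 4OHT and 117 CPM in medium. Without that library, the log2 fold change of Tlr13 in 4OHT against 4OHT+Fer-1 turned from 0.27 to -0.23, and neither value passed the test (adjusted p = 0.868 and 0.570, edgeR).

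Ferrostatin-1 alone gave no called member. Between Fer-1 and ctrl, 0 of 9 members and 0 of all genes (0%) passed by edgeR, where 146 genes but no member had an unadjusted p under 0.05, and DESeq2 called 9 genes and 0 members. The member log2 fold changes lay between -0.46 (Cd14) and 0.29 (Tlr3). Cd14 had 191, 156 and 89.7 CPM in Fer-1, which overlapped with ctrl, and Tlr13 had 108, 93.6 and 60.8 CPM, the higher of the pair in 3 of 3 replicate numbers by 0.13, 0.15 and 0.29 on the log2 scale. 4OHT+Fer-1 against Fer-1 called 0 of 9 members and 3 genes (0.0233%), with Cd14 lowest at -0.60. For Cd14 the 4OHT+Fer-1 library was the lower in 3 of 3 pairs, by 0.26, 1.11 and 0.56 on the log2 scale, with an adjusted p of 1 (edgeR).

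Whether the 4OHT effect differed with and without Ferrostatin-1 was tested as an interaction, which called 0 of 9 members (0 by DESeq2) and 4 genes (0.0311%). Tlr1 came nearest, at 0.60 on the log2 scale (95% confidence interval -0.04 to 1.23, adjusted p = 0.864, edgeR).

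Among the comparisons of groups, edgeR called a member only between ctrl supernatant and fresh medium. Tlr3 had 56.1 and 36.2 CPM in the medium libraries of replicates 1 and 2, and 28.1, 23.9 and 9.61 CPM in the ctrl libraries of replicates 1, 2 and 3. It had 31.1, 21.6 and 18.8 CPM in Fer-1, and 22.7, 27.6 and 17.9 CPM in 4OHT+Fer-1. Medium and ctrl did not overlap, and the 12 supernatant libraries, from 9.61 to 31.1 CPM with a median of 22.5 CPM, all lay below both medium libraries. The fitted log2 difference of ctrl from medium was -0.99 (standard error 0.25, 95% confidence interval -1.54 to -0.45, adjusted p = 0.0250, edgeR). Within replicate numbers 1 and 2, Tlr3 was lower in ctrl by 0.99 and 0.59 on the log2 scale. The call ended without the replicate block (log2 fold change -1.17, adjusted p = 0.124, edgeR), and leaving out the medium library of replicate 1 or of replicate 2 gave -0.74 (adjusted p = 0.316) and -1.19 (adjusted p = 0.0710) by edgeR. Leaving out all libraries of replicate 1 or of replicate 2 gave -0.86 (adjusted p = 0.355) and -1.28 (adjusted p = 0.202).

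This was 1 of the 9 members, beside 1396 of all genes (10.9%), so the share of members called was close to that of all genes. Tlr1 and Tlr8 had negative values that did not pass, each with an unadjusted p under 0.05. Tlr1 had 46.5 and 38.2 CPM in medium against 23.2, 21.4 and 30.9 CPM in ctrl. These groups did not overlap either, and 11 of the 12 supernatant libraries lay below both medium libraries, the exception being 4OHT replicate 1 at 38.7 CPM. Its log2 fold change was -0.76 (95% confidence interval -1.27 to -0.25, adjusted p = 0.0584, edgeR), and DESeq2 called it at an adjusted p of 0.0337.

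Tlr8 had 60.8 and 80.2 CPM in medium and 60.3, 38.0 and 45.5 CPM in ctrl, a log2 fold change of -0.64 (adjusted p = 0.168, edgeR). Within replicate 1 the difference was -0.01 and within replicate 2 it was -1.07 on the log2 scale. The remaining members had smaller differences in either direction. Tlr7 differed by 0.03, Cd14 by 0.13, Tlr4 by 0.36, Tlr2 by -0.33, Tlr13 by -0.34 and Tlr6 by -0.45 on the log2 scale. With 2 medium libraries these intervals were wide, reaching 1.00 for Cd14 and -1.25 for Tlr13.

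Ferroptotic supernatant against medium called 0 of 9 members and 548 genes (4.26%) by edgeR, while 1 member had an unadjusted p under 0.05 and DESeq2 called 1 member. Both times this was Tlr3, which had 25.7, 22.2 and 14.3 CPM in 4OHT, a log2 fold change of -0.92 against medium (95% confidence interval -1.47 to -0.37, adjusted p = 0.0667 by edgeR and 0.0248 by DESeq2). This comparison uses the same 2 medium libraries as that of ctrl. Over all 5 groups together, edgeR called 0 of 9 members and 913 genes (7.1%). Tlr3 (adjusted p = 0.130) and Tlr1 (adjusted p = 0.148) had an unadjusted p under 0.05 in that edgeR test, and both were called by DESeq2.

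Other measures moved with the medium group. Mki67, a gene of dividing cells, had 10.7 and 23.1 CPM in medium and from 71.4 to 392 CPM in the supernatants. The summed level of 7 neutrophil markers, of which 3 passed the filter, was from 35.2 to 48.6 CPM in medium and from 2.87 to 15.6 CPM in ctrl, and Ly6g and Elane were at 0 counts throughout. In the other supernatants that sum lay between 4.05 and 25.5 CPM. The summed level of the 11 fibroblast markers, 5 of them tested, overlapped between medium and each supernatant group. It was 35.5 to 108 CPM in medium, 19.6 to 53.3 CPM in ctrl and 17.7 to 55.1 CPM in 4OHT. In 4OHT+Fer-1 it was 16.0 to 101 CPM and in Fer-1 21.5 to 126 CPM. Single fibroblast genes did differ by DESeq2, which called Col1a1 and Col1a2 in ctrl against medium. In 4OHT against medium it called Col1a1, Col1a2 and Postn. Among the macrophage markers Adgre1, Mertk and Fcgr1 were lower in ctrl than in medium (log2 fold changes of -0.74, -0.79 and -0.80) and Mrc1 was higher (2.27), all called by edgeR. The part of these in the Tlr3 difference was not tested.

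The other genes of the pathway were read from 4 lists. The list of further receptors and accessory proteins held 25 genes, of which 23 were tested. Tlr5, the flagellin receptor, had between 5 and 29 counts per library, and Tlr11 and Tlr12 had at most 6 and 8 counts. Ly96, which encodes the TLR4 partner MD-2, had 48.3, 29.4 and 41.5 CPM in 4OHT, 25.0, 21.6 and 43.4 CPM in ctrl and 35.8 and 34.8 CPM in medium, without a called difference. Lbp, the LPS-binding protein of serum, had at most 20 counts in any library. In 4OHT against ctrl and against 4OHT+Fer-1, edgeR and DESeq2 called 0 of these genes. By edgeR, 1 and 4 had an unadjusted p under 0.05. The share of all genes at that threshold is not given, so no result is read from these counts.

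Unc93b1, the chaperone that carries the endosomal receptors out of the endoplasmic reticulum, was above every member in all 14 libraries. It had 674, 650.1 and 298 CPM in 4OHT, 383, 404 and 387 CPM in ctrl, 359.7, 235 and 347 CPM in 4OHT+Fer-1, and 785 and 664 CPM in medium. The 4OHT libraries of replicates 1 and 2 were thus near the medium level, while that of replicate 3 was not. The log2 fold change was 0.45 against ctrl (adjusted p = 0.616) and 0.78 against 4OHT+Fer-1 (95% confidence interval 0.20 to 1.35, adjusted p = 0.235) by edgeR.

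Ly86 and Cd180 form a receptor complex related to that of MD-2 and TLR4, and both were lower in supernatants than in medium. Ly86, which encodes MD-1, had 122 and 117 CPM in medium, 55.0, 46.5 and 41.7 CPM in ctrl and 51.3, 69.1 and 44.5 CPM in 4OHT. No supernatant library reached the medium level in these groups. Its log2 fold change was -1.30 in ctrl (adjusted p = 0.00364) and -1.10 in 4OHT (adjusted p = 0.0211) against medium by edgeR. Cd180 had 135 and 107.5 CPM in medium, 86.8, 76.8 and 53.3 CPM in ctrl and 41.4, 49.6 and 81.5 CPM in 4OHT, and passed the test in 4OHT against medium (log2 fold change -1.12, adjusted p = 0.0474, edgeR). In ctrl against medium it did not pass (-0.77, adjusted p = 0.102, edgeR), and whether the comparisons differ in Cd180 was not tested. Cnpy3, a chaperone of Toll-like receptors, and Slc15a3, a transporter of the endolysosome, were the other genes of this list called lower in ctrl than in medium, at -1.13 and -1.35. The calls of Cd180 and Cnpy3 were lost in 13 and 14 of 23 alternatives, among them those without either medium library. Of all genes tested, 10.9% were called in ctrl against medium and 4.26% in 4OHT against medium.

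The list of adapters, kinases and transcription factors held 28 genes, of which 27 were tested. Between 4OHT and ctrl and between 4OHT and 4OHT+Fer-1, 0 of the 27 were called by edgeR, and DESeq2 called 0 and 1 (Ikbke, named after its values were seen). By edgeR, 4 in each had an unadjusted p under 0.05. The share of all genes at that threshold is not given, so no result is read from this count. Beside 10.9% of all genes tested, 6 of the 27 were called in ctrl against medium, all lower in ctrl. They were Pik3ap1 (log2 fold change -1.12), an adapter that links the receptors to PI3K, the kinases Ikbke (-0.997), Irak2 (-1.27) and Ikbkb (-0.61), and the transcription factors Irf7 (-1.50) and Irf5 (-1.42). The call of Ikbkb was lost in 7 of 23 alternatives, that of Irf7 in 4, that of Irf5 in 3 and each of the others in 2. Pik3ap1, Irak2, Irf7 and Irf5 were also called lower in 4OHT than in medium, at -1.08, -1.01, -1.79 and -1.18, beside 4.26% of all genes tested. In 4OHT against medium the call of Irf5 was lost in 10 of 23 alternatives and those of the others in 4 to 6. Myd88 itself had from 137 to 185 CPM in medium and from 109 to 135 CPM in ctrl, and Ticam1, which encodes TRIF, from 21.1 to 22.7 CPM and from 10.9 to 20.0 CPM. The median of the list in ctrl against medium was -0.31, beside -0.01 over all genes tested.

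All 22 negative regulators listed were tested. In 4OHT, 0 were called against ctrl and 0 against 4OHT+Fer-1 by edgeR, and DESeq2 called 0 and 1 (Nfkbie, named after its values were seen). By edgeR, 5 and 9 had an unadjusted p under 0.05. As in the lists above, these counts stand without the share of all genes at that threshold, and no result is read from them. In ctrl against medium 6 of the 22 were called, all lower, beside 10.9% of all genes tested. They were the phosphatase Dusp1 (log2 fold change -1.61), the cytokine signalling inhibitor Socs1 (-1.69) and the transcription factor Atf3 (-0.99). The others were the IκB proteins Nfkbia (-0.57) and Nfkbie (-0.74), and Zc3h12a (-0.94), which degrades inflammatory mRNAs. The calls of Nfkbie, Zc3h12a, Nfkbia, Socs1 and Atf3 were lost in 14, 13, 12, 10 and 9 of 23 alternatives, and that of Dusp1 in 2. Dusp1 had 42.4 to 45.9 CPM in medium, 11.14 to 16.2 CPM in ctrl and 19.2 to 25.4 CPM in 4OHT. It was the only one called in 4OHT against medium (-0.98, adjusted p = 0.0335, edgeR), beside 4.26% of all genes tested. That call was lost in 10 alternatives.

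LPS response genes, which Toll-like receptor signalling induces, were called in both comparisons with medium, and 1 of them in 4OHT against ctrl. Of 30 listed genes 22 were tested, and 8 were too low, among them Il6, Ifnb1, Il1a, Il12b and Nos2 with at most 4 counts in any library. Il1b, which encodes interleukin-1β, was the only one called in 4OHT against ctrl and against 4OHT+Fer-1, beside 1.49% and 1.35% of all genes tested. Its log2 fold changes were 3.00 against ctrl and 2.92 against 4OHT+Fer-1. DESeq2 called Il1b in both comparisons as well. With only the groups compared in the fit, 0 genes were called against ctrl, so that call ended. Without replicate 2 no gene was called in either comparison, nor without replicate 1 against 4OHT+Fer-1. In the remaining alternatives Il1b was not read for these 2 calls. Between ctrl and medium 12 of the 22 were called, 11 lower in ctrl and 1 higher, beside 10.9% of all genes tested. The median log2 fold change of the list was -0.90. The lower genes with the smallest adjusted p were Il1b (-3.66), the interferon-induced Rsad2 (-2.12), the co-stimulatory receptor Cd40 (-1.89), the chemokines Cxcl10 (-2.35) and Ccl5 (-1.75), and Nfkbiz (-1.33), a regulator of NF-κB targets. These calls were lost in 2 to 4 of 23 alternatives, and that of Isg15, also lower in ctrl, in 8. The gene that was higher, named after its values were seen, was the chemokine Ccl2 (log2 fold change 2.56), with 1.001 and 8.001 CPM in the 2 medium libraries and 3.09 to 24.2 CPM in ctrl, ranges that overlapped. In 4OHT against medium 6 of the 22 were called, all lower, beside 4.26% of all genes tested. They were Rsad2 (-2.15), Cxcl10 (-2.07), Ccl5 (-1.89), Cd40 (-1.83), the itaconate-producing enzyme Acod1 (-1.59) and Isg15 (-1.38). The call of Rsad2 was lost in 3 of 23 alternatives, that of Acod1 in 7 and each of the others in 5. Il1b in 4OHT, at 34.1 to 50.2 CPM, overlapped with medium, at 37.3 to 52.6 CPM.

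**Figure D3:**
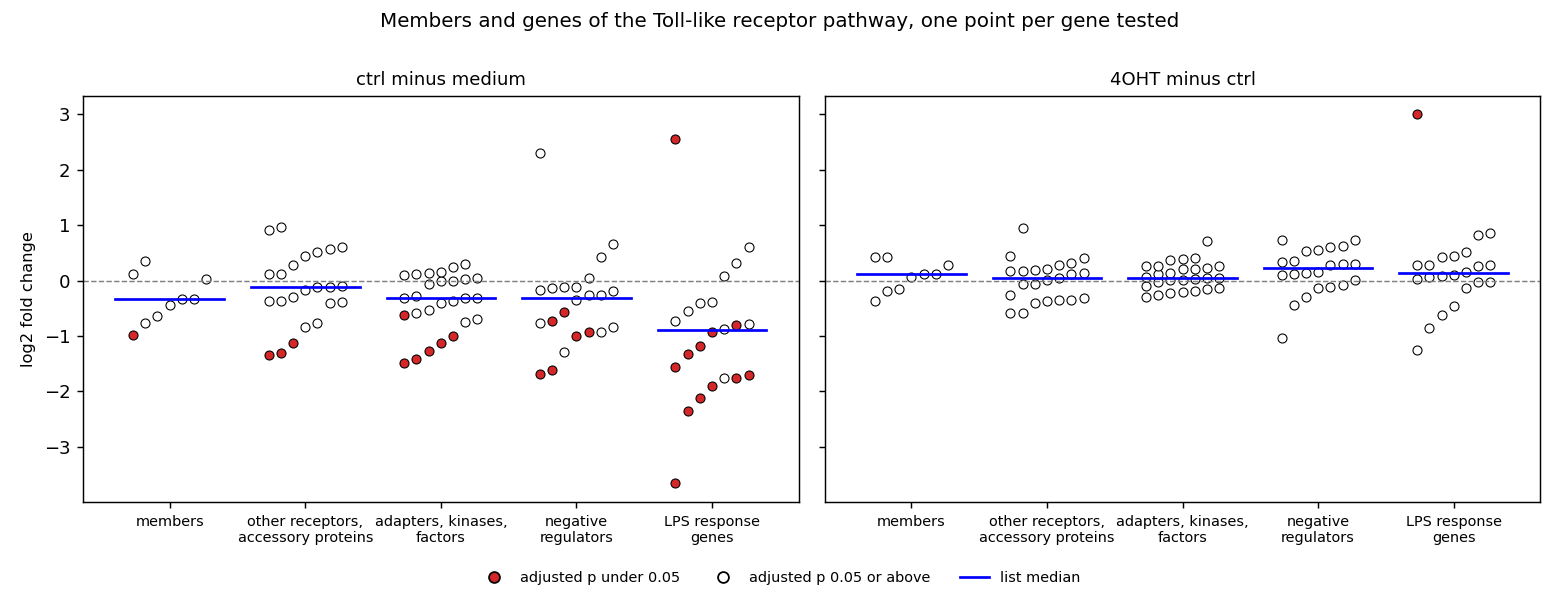
Log2 fold change (y axis, edgeR) of each gene tested among the members and the 4 pathway lists (x axis), in ctrl against medium and in 4OHT against ctrl; filled points passed an adjusted p under 0.05 and the blue line is the list median. In ctrl against medium 1 of 9 members and 3, 6, 6 and 12 genes of the lists passed, beside 10.9% of all genes tested. In 4OHT against ctrl Il1b alone passed, beside 1.49% of all genes tested.

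Tlr7, Tlr3 and Tlr4 differed between replicate numbers. An F test between the 3 replicate numbers in the same edgeR model, added after the data had been seen, called 3 of 9 members and 1317 of all genes (10.2%). Averaged over the 4 supernatant groups, Tlr7 had 251, 189 and 150.1 CPM in replicates 1, 2 and 3 (adjusted p = 0.0252, edgeR). Its replicate 1 library was the highest in all 4 supernatant groups.

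Tlr3 had averages of 26.9, 23.8 and 15.2 CPM in replicates 1, 2 and 3, and its replicate 3 library was the lowest in all 4 supernatant groups (adjusted p = 0.0285, edgeR). Tlr4 had 70.4, 50.1 and 39.0 CPM, with replicate 1 highest in 4 of 4 groups and replicate 3 lowest in 3 (adjusted p = 0.0491, edgeR). Cd14 had 170.4, 168 and 99.3 CPM and did not pass (adjusted p = 0.129, edgeR). Tlr1, Tlr2, Tlr6, Tlr8 and Tlr13 did not pass either, with adjusted p-values from 0.424 to 0.805.

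These calls depended on single libraries. With 1 library or 1 replicate number left out, between 0 and 4 members were called, and DESeq2 called Cd14 besides Tlr3, Tlr4 and Tlr7. No member was called without any one replicate number, nor without replicate 3 of Fer-1, replicate 3 of 4OHT+Fer-1, replicate 1 of 4OHT or replicate 2 of medium. Without 4OHT replicate 3 or Fer-1 replicate 1, Tlr7 alone was called, and without 4OHT+Fer-1 replicate 1, Tlr13 and Tlr3 were. Without replicate 1 of medium or replicate 2 of ctrl, 4OHT or 4OHT+Fer-1, Tlr3 and Tlr7 were called.

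The libraries of the replicate numbers also differed in other measures. Xist, which is transcribed from the inactive X chromosome of females, had at most 0.405 CPM in replicate 1 but 363 to 521 CPM in replicate 2 and 685 to 751 CPM in replicate 3. The Y-linked gene Ddx3y had 102 to 140.5 CPM in replicate 1 and at most 0.110 CPM in replicates 2 and 3. Replicate 1 therefore differs from the other two in sex, and sex cannot be told apart from the animal there, while replicates 2 and 3 both have Xist and lack Ddx3y beyond 1 count. Of the other X-linked members, neither of which passed, Tlr13 averaged 80.5, 94.2 and 61.8 CPM in replicates 1, 2 and 3, with replicate 2 highest, and Tlr8 had 53.4, 45.02 and 56.9 CPM. The share of mitochondrial transcripts was 8.50 to 10.6% in replicate 3 and 4.53 to 7.77% in replicates 1 and 2, and its part in the lower levels of Tlr3, Tlr4 and Tlr7 was not tested.

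**Figure D4:**
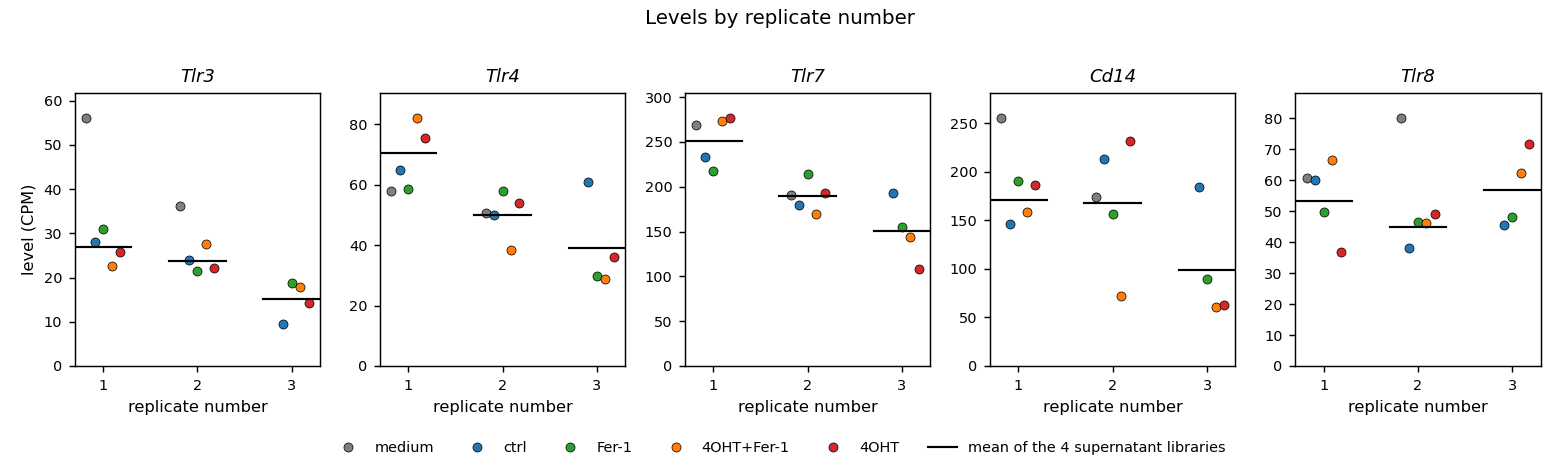
Level in CPM (y axis, linear and from 0) by replicate number (x axis) of Tlr3, Tlr4, Tlr7, Cd14 and Tlr8; points are libraries coloured by group, with no medium library in replicate 3, and the black line is the mean of the 4 supernatant libraries. Tlr7 averaged 251, 189 and 150.1 CPM, and Tlr8 53.4, 45.02 and 56.9 CPM.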

How the data were processed

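The authors aligned 3′ reads with STAR 2.7.10a, quantified genes with Salmon 1.5.2 and deposited the estimated counts, which are not normalized. The submitters' processing notes name GRCm38 and GRCh38, and the identifiers are of mouse genes. Strand handling is not given in the sources used here. A second deposited table holds the authors' own DESeq2 comparisons and CPM and was not used.

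Counts were rounded (30109 values of all genes, 4 of the members' 140, were not whole) and fitted with edgeR 4.0.16 (R 4.3.3) by quasi-likelihood over all 14 libraries, with TMM scaling, filterByExpr (minimum count 10) and the replicate number as a block, since the methods fit mouse ID as a covariate. That the number in the titles is the mouse was assumed. The p-values of the model set a difference against the spread left between these libraries once group and replicate number were fitted. Deviations from group means correlated over genes with a median r of 0.247 for libraries of the same number and -0.139 otherwise. Deviations within a group sum to 0, which ties these values to each other, so the second adds no separate support for the pairing. Differences within replicate numbers used a pseudocount of 0.5 CPM. Alternatives were DESeq2 1.42.0, its size factors, 2 other filters, a fold limit, fits of fewer groups and left-out libraries. Code was tested on simulated data.

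Members and lists (further receptors and accessory proteins, adapters and kinases, negative regulators, LPS response, cell type markers) were chosen with earlier results of these data known. All members were named, and in each list up to 6 called genes per comparison by adjusted p, with Ly96, Cd180, Ly86, Unc93b1, Lbp, Tlr5, Tlr11 and Tlr12 always. Genes of like pattern were to be named for members called over all 5 groups, which were none.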

Additional observations from a re-analysis of the deposited data

How the results depend on the processing

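The main model was refitted under 23 alternatives for each member. Of 897 values for 39 member results, 827 kept their direction and their side of the threshold, 14 passed it only in the alternative, 5 no longer passed it (all Tlr3 in ctrl against medium) and 51 changed sign, none of which passed the test. Medium had 2 libraries, and the 95% intervals of members in ctrl against it reached from -1.54 to 1.00 on the log2 scale.

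The replicate block is in the main model. With no replicate block, 7 genes were called in 4OHT against ctrl, 20 against 4OHT+Fer-1, 1 in 4OHT+Fer-1 against ctrl and 1 against Fer-1, 523 in ctrl and 104 in 4OHT against medium, 0 in the interaction and 372 over the 5 groups, and 0 members in ctrl against medium. Cd14 and Tlr7 in ctrl against medium then turned to -0.25 and -0.18.

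By DESeq2 these counts were 396, 372, 22 and 26 genes, 9 in Fer-1 against ctrl, 829 in 4OHT against medium, 86 in the interaction and 1544 over the 5 groups. DESeq2 called 2 members in ctrl against medium (Tlr1 and Tlr3), 1 in 4OHT against medium (Tlr3) and 2 over the 5 groups. With no filter on low counts they were 325, 285, 10 and 9 genes, and 32 in the interaction. With only the groups compared in the fit they were 0, 37, 0 and 0 genes, 2488 in ctrl and 1470 in 4OHT against medium, with 3 members (Tlr1, Tlr3 and Tlr8) and 2 (Tlr3 and Tlr8). That fit gave Cd14 and Tlr7 -0.23 and -0.11 in ctrl against medium, Tlr7 0.01 in 4OHT against medium and Tlr6 0.01 in 4OHT against 4OHT+Fer-1. With a log2 fold change above 1 required as well, 0 members passed in ctrl against medium. The cause of these shifts was not tested.

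With 1 library or 1 replicate number left out, the genes called ranged from 0 to 259 in 4OHT against ctrl, 0 to 469 against 4OHT+Fer-1, 0 to 5 in 4OHT+Fer-1 against ctrl, 0 to 1 in Fer-1 against ctrl, 0 to 4 in 4OHT+Fer-1 against Fer-1, 87 to 1636 in ctrl and 0 to 775 in 4OHT against medium, 0 to 31 in the interaction, 9 to 1233 over the 5 groups and 97 to 1459 between replicate numbers. Members called ranged from 0 to 2 in ctrl against medium, 0 to 1 in 4OHT against medium, 0 to 2 over the 5 groups and 0 to 4 between replicate numbers. In 4OHT against ctrl the log2 fold changes then ranged from -0.17 to 0.21 for Tlr3, -0.37 to 0.20 for Tlr4, -0.36 to 0.16 for Tlr7, -0.18 to 0.52 for Tlr8, -0.10 to 0.35 for Tlr13 and -0.79 to 0.20 for Cd14. Against 4OHT+Fer-1 they ranged from -0.26 to 0.15 for Tlr6, -0.20 to 0.16 for Tlr7, -0.43 to 0.16 for Tlr8 and -0.23 to 0.76 for Tlr13. In ctrl against medium they were -0.14 to 0.17 for Tlr7 and -0.22 to 0.60 for Cd14. In 4OHT against medium they were -0.14 to 0.30 for Tlr2, -0.36 to 0.12 for Tlr6, -0.29 to 0.03 for Tlr7 and -0.48 to 0.09 for Tlr13. In Fer-1 against ctrl Cd14 ranged from -0.82 to 0.00.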
